A study of Mus musculus with 12 samples.

Results

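The genes described here are the liver X receptors LXRα (Nr1h3) and LXRβ (Nr1h2), their partner receptor RXRα (Rxra), and 6 genes under LXR control: the cholesterol exporters Abca1 and Abcg1, the lipid carrier Apoe, the phospholipid transfer protein gene Pltp, the acyltransferase gene Lpcat3 and the LDL receptor ligase gene Mylip. Members were all probes annotated to 1 of these 9 genes. They came to 12 probes of 8 genes, out of 16590 annotated genes in the series. The probe annotation used here listed no probe for Nr1h2, which is not analysed here.

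Messenger RNA was measured with 12 Illumina bead arrays in RAW264.7, a single transformed mouse macrophage line. The groups of 3 arrays each, biological triplicates per the labels, were cells given CpG with gefitinib, CpG, gefitinib, or neither (untreated). CpG oligonucleotides, which imitate bacterial DNA and act through the endosomal receptor TLR9, were given at 10 µg/ml for 6 h. Gefitinib, an inhibitor of the EGF receptor kinase, was given at 10 µM from 1 h before CpG. The labels give no incubation time for cells that received gefitinib or nothing without CpG, and all groups share the same medium with serum. The study's stated comparison is CpG with gefitinib against CpG.

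LXRs are nuclear receptors that bind DNA as dimers with RXR and are switched on by oxysterols and by desmosterol, sterols that build up in cholesterol-loaded macrophages. Active LXR raises the genes that move cholesterol out of the cell (Abca1, Abcg1, Apoe, Pltp), limits its uptake through Mylip, and remodels membrane phospholipids through Lpcat3. In macrophages the receptors connect lipid handling with inflammation: Toll-like receptor signals lower some LXR targets, and active LXR restrains some inflammatory genes.

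The DNA element through which LXR and RXR act is a direct repeat of the core letters AGGTCA with a 4-base spacer (DR4). RefSeq promoter windows (build GRCm38.p6), each from 250 bases before to 50 bases after a start site, were found for 8 of the 9 genes, and Abcg1 had none. The core AGGTCA, on either strand, lay in 16.3% of all 32851 windows (5340). A loosened repeat, the letters GGTNA followed by any 5 bases and GGTNA again on either strand, lay in 0.718% of them (236). A match can hold the core letters as well, since the motifs overlap. Among the member windows the loosened repeat was found in that of Abca1, and the core letters in 1 of the 2 windows of Rxra, at -87 to -82 on the reverse strand and at -48 to -43 on the forward strand. Shown are the 250 upstream bases of Abca1, which carries the repeat, and of Pltp and Lpcat3, which moved in the same direction in the comparison of CpG with gefitinib against CpG and held neither motif in this window. Capitals mark the repeat, which reads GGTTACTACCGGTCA on the reverse strand from -67 to -53. These are matches of letters and not measured binding, and the window says nothing of elements elsewhere.
Abca1, chr4:53159896-53160145, minus strand: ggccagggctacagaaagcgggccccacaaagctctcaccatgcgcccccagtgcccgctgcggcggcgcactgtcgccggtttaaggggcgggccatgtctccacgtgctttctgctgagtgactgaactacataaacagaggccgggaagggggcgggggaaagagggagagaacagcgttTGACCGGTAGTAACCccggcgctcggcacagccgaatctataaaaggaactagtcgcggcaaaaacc
Pltp, chr2:164857709-164857958, minus strand: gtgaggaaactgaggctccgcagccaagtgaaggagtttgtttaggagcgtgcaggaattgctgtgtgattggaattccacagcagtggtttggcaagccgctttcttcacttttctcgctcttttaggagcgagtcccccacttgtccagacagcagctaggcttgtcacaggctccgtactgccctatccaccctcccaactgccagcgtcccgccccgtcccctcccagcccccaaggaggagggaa
Lpcat3, chr6:124662854-124663103, plus strand: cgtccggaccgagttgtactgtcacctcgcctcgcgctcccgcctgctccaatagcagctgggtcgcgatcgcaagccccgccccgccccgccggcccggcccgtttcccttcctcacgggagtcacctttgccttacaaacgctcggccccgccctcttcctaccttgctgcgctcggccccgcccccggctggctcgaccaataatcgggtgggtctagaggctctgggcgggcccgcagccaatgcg

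Each array detected 10705 to 11181 of 25697 probes (41.7% to 43.5%), a probe being detected where its detection p-value, its rank among the negative control beads, was under 0.05. Arrays of 1 group correlated at 0.983 to 0.994 (Pearson's r). Tnf, used as a check that CpG had acted, was 4.17 ± 0.15 log2 units higher (SE) in CpG cells than in untreated cells. None of the 4 Egfr probes was detected on any array. Of the macrophage markers, 6 of 8 had a probe and all 6 were detected on at least 3 arrays (Adgre1, Itgam, Lyz2, Spi1, Fcgr1 and Cd14). Itgam was detected on the 3 CpG arrays and on 0 arrays of each other group, so it has only a bound there. The summed linear level of the 6 markers, Itgam included in every group, was 21297 to 24561 in cells given CpG with gefitinib and 37704 to 40454 in CpG cells. It was 22854 to 26843 in gefitinib cells and 25890 to 29041 in untreated cells. Of the 8 fibroblast and epithelial markers with a probe 7 were detected on no array, while the epithelial marker Cdh1 was detected on 11 of 12. Of the 8 lymphocyte and granulocyte markers with a probe 6 were detected on no array, Elane on 2 and S100a8 on all 12. S100a8, a granulocyte and macrophage gene, moved with the groups, and its change in CpG cells was 2.89 ± 0.18 log2 units against untreated cells (SE). The part of these marker shifts in the member results was not tested. Bulk RNA cannot tell a change in the number of expressing cells from a change per cell.

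Of the 12 member probes, 8 probes of 5 genes passed the detection filter (detected on at least 3 of 12 arrays) and were tested. The tested genes were Nr1h3, Abcg1, Apoe, Pltp and Lpcat3. The other 4 probes, of Rxra, Abca1 and Mylip, were detected on 0 of 12 arrays, so these 3 genes have only a bound in every group and no fold was computed. The Abca1 probe (ILMN_1226851), for the exporter that loads cholesterol and phospholipid onto lipid-poor apolipoprotein A-I, gave deposited signals of 97.0 to 122, with detection p-values of 0.195 to 0.947. The Rxra probe (ILMN_2741479) gave signals of 97.1 to 123, with detection p-values of 0.134 to 0.826. The Mylip probes (ILMN_2590339 and ILMN_2735102) gave signals of 99.5 to 120 and 97.7 to 122. For comparison, the lowest signal of any detected probe was 113 to 139 per array. By their detection p-values these probes lay within the range of the negative control beads. Whether these probes work on this platform could not be checked, and the bounds hold only if they do.

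**Figure D1:**
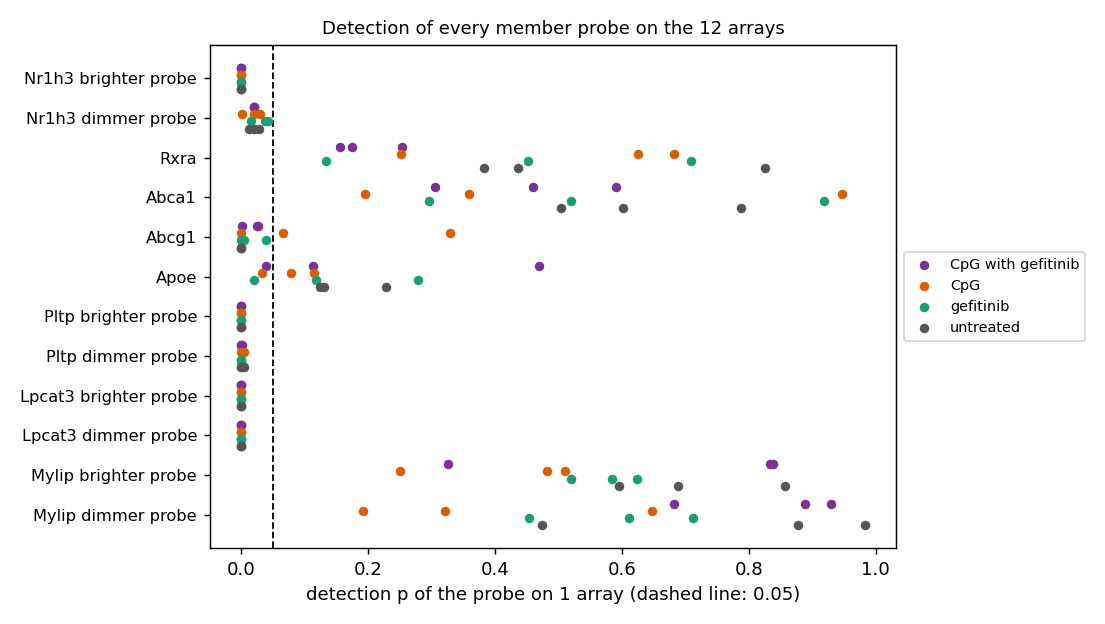
Detection p-value (horizontal axis) of each of the 12 member probes (rows) on each of the 12 arrays, with 1 point per array, coloured by group, and a dashed line at 0.05. All points of Rxra, Abca1 and both Mylip probes lie right of the line, those of Nr1h3, Pltp and Lpcat3 lie left of it, and Abcg1 and Apoe straddle it.

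Nr1h3, which encodes LXRα, the LXR that is abundant in macrophages and liver, was lower in cells given CpG with gefitinib than in CpG cells, and higher in CpG cells than in untreated cells. Its brighter probe (ILMN_2663374) had normalized log2 values of 6.65, 6.52 and 6.64 in cells given CpG with gefitinib, against 6.98, 7.0 and 7.21 in CpG cells. The values were 6.74, 6.49 and 6.61 in gefitinib cells, against 6.67, 6.64 and 6.73 in untreated cells. All 3 CpG arrays lay above the other 9, and the other 3 groups overlapped one another. With CpG and gefitinib the mean was 6.60 ± 0.07, against 7.06 ± 0.13 with CpG (SD, n = 3 each). The difference was -0.46 ± 0.11 log2 units (SE; 95% confidence interval -0.69 to -0.23; limma adjusted p = 0.00477), a level of 0.727 of that in CpG cells. In CpG cells it was 0.38 ± 0.11 log2 units above the untreated level of 6.68 ± 0.05 (limma adjusted p = 0.0204). Gefitinib cells differed from untreated cells by -0.07 ± 0.11 (SE; interval -0.30 to 0.16; limma adjusted p = 0.755).

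The call of Nr1h3 in CpG against untreated cells depended on single arrays and on the scaling. Without CpG replicate 3 it was 0.31 (limma adjusted p = 0.074), without untreated replicate 2 it was 0.36 (limma adjusted p = 0.0651), and with median scaling 0.30 (limma adjusted p = 0.316). With only these groups in the fit the limma adjusted p was 0.0707. The lower level with CpG and gefitinib passed in 22 of 23 alternatives and did not with median scaling (-0.40, limma adjusted p = 0.118). In the deposited signals before normalization, cells given CpG with gefitinib had 208, 194 and 181 and CpG cells 253, 218 and 210, while untreated cells had 224, 199 and 196. CpG and untreated cells thus overlapped on that scale, on which the arrays' median signals ranged from 108 to 131. Without background correction the sizes were smaller, at -0.23 for CpG with gefitinib against CpG and 0.20 for CpG against untreated, and both passed. The dimmer Nr1h3 probe (ILMN_2668472) did not pass in any comparison: its difference was -0.11 for CpG with gefitinib against CpG (limma adjusted p = 0.568) and 0.03 for CpG against untreated (limma adjusted p = 0.908). The probes of Nr1h3 correlated at 0.376 over the 12 arrays.

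Abcg1 exports cholesterol to high-density lipoprotein particles. It was lower in CpG cells than in untreated cells, close to the limit of detection. Its probe (ILMN_2441335) had log2 values of 4.87, 5.77 and 4.48 in CpG cells, against 6.31, 6.10 and 5.82 in untreated cells. Cells given CpG with gefitinib had 5.05, 5.56 and 5.10, and gefitinib cells had 5.24, 5.84 and 5.02. The untreated arrays were the 3 highest except that gefitinib replicate 2, at 5.84, was above untreated replicate 3. The CpG group spread widely, with replicate 2 detected and replicates 1 and 3 not (detection p-values of 0.0664 and 0.330 among the control beads), whereas all 9 other arrays detected the probe. The difference in CpG cells was -1.03 ± 0.29 log2 units (SE; 95% confidence interval -1.66 to -0.41; limma adjusted p = 0.0198), a level of 0.488 of that in untreated cells.

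The same probe averaged 5.23 ± 0.28 with CpG and gefitinib, 5.04 ± 0.66 with CpG, 5.37 ± 0.42 with gefitinib and 6.08 ± 0.25 untreated (SD, n = 3 each). From low to high the order was CpG, CpG with gefitinib, gefitinib and untreated, and the ranges of neighbours in this order overlapped. CpG with gefitinib differed from CpG by 0.19 ± 0.29 (SE; interval -0.43 to 0.82; limma adjusted p = 0.653). Against untreated cells the difference was -0.84 ± 0.29 with CpG and gefitinib (limma adjusted p = 0.139) and -0.71 ± 0.29 with gefitinib (limma adjusted p = 0.158), neither past the threshold. The difference for CpG with gefitinib passed without CpG replicate 2 (limma adjusted p = 0.0497) and with only these groups in the fit (limma adjusted p = 0.0432). With the replicate number as a block it passed (limma adjusted p = 0.0343), as did the difference for gefitinib (limma adjusted p = 0.0418). The 3 differences from untreated cells share the same untreated arrays. The call for CpG was lost without CpG replicate 1 (-0.94, limma adjusted p = 0.0676), CpG replicate 3 (-0.76, limma adjusted p = 0.0826), untreated replicate 1 (-0.91, limma adjusted p = 0.0756) or untreated replicate 2 (-1.02, limma adjusted p = 0.0558), and without the detection filter (limma adjusted p = 0.0579). Without background correction the difference in CpG cells was -0.31, and with offset 50 it was -0.58, both past the threshold.

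Apoe encodes the apolipoprotein that macrophages secrete with exported cholesterol. Its probe (ILMN_1216042) was detected on 1 array each of CpG with gefitinib, CpG and gefitinib and on 0 untreated arrays. The log2 values were 4.69, 4.41 and 5.01 in cells given CpG with gefitinib, 4.71, 4.78 and 5.11 in CpG cells, 4.50, 5.07 and 4.73 in gefitinib cells and 4.66, 4.68 and 4.54 in untreated cells. CpG with gefitinib overlapped CpG, and Apoe passed in none of the comparisons. The untreated group has only a bound, and no fold against it is given.

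Pltp encodes the plasma phospholipid transfer protein, which moves phospholipid between lipoproteins. It was higher in cells given CpG with gefitinib than in CpG cells. The brighter probe (ILMN_2669714) had log2 values of 7.09, 6.92 and 6.80 in cells given CpG with gefitinib, against 6.43, 6.47 and 6.32 in CpG cells. Gefitinib cells had 6.82, 6.99 and 7.45, against 6.55, 6.88 and 6.82 in untreated cells. The CpG arrays were the 3 lowest of the 12. Gefitinib and untreated arrays overlapped. The mean was 6.94 ± 0.14 with CpG and gefitinib, against 6.41 ± 0.08 with CpG (SD, n = 3 each), a difference of 0.53 ± 0.16 log2 units (SE; 95% confidence interval 0.19 to 0.86; limma adjusted p = 0.0182), or 1.44-fold.

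CpG cells lay below untreated cells in Pltp without overlap, but the difference of -0.34 ± 0.16 did not pass (limma adjusted p = 0.137), and neither did gefitinib against untreated (0.33 ± 0.16, limma adjusted p = 0.22). The dimmer Pltp probe (ILMN_2589401) gave 0.31 ± 0.19 for CpG with gefitinib against CpG (SE; limma adjusted p = 0.224). Its correlation with the brighter probe was 0.671 over the 12 arrays. The call on the brighter probe was lost without CpG with gefitinib replicate 1 (0.45, limma adjusted p = 0.0743) and without CpG replicate 3 (0.49, limma adjusted p = 0.0528), and held in the other 21 alternatives. Without background correction the difference was 0.25.

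Lpcat3 encodes the enzyme that places polyunsaturated fatty acids in membrane phosphatidylcholine. On its brighter probe it was higher in both gefitinib groups than in the matching cells without gefitinib. The brighter probe (ILMN_2980858) had log2 values of 9.32, 9.26 and 9.23 in cells given CpG with gefitinib, against 8.69, 8.70 and 8.91 in CpG cells. It had 9.34, 9.38 and 9.64 in gefitinib cells, against 8.60, 9.05 and 9.03 in untreated cells. All 6 arrays with gefitinib lay above all 6 without it. The difference between CpG with gefitinib and CpG was 0.50 ± 0.14 log2 units (SE; 95% confidence interval 0.21 to 0.80; limma adjusted p = 0.0121), or 1.42-fold, and passed in all 23 alternatives.

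Gefitinib against untreated cells gave 0.56 ± 0.14 log2 units for the same Lpcat3 probe (SE; interval 0.27 to 0.86; limma adjusted p = 0.0283), or 1.48-fold. CpG against untreated cells gave -0.13 ± 0.14 (SE; limma adjusted p = 0.574). The call for gefitinib was lost without gefitinib replicate 2 (limma adjusted p = 0.0594), gefitinib replicate 3 (limma adjusted p = 0.132) or untreated replicate 1 (limma adjusted p = 0.0961), with median scaling (0.44, limma adjusted p = 0.192), and with only these groups in the fit (limma adjusted p = 0.063). The dimmer Lpcat3 probe (ILMN_1237328) had 7.40, 7.68 and 7.47 in cells given CpG with gefitinib, against 7.05, 7.41 and 6.85 in CpG cells. Its difference of 0.41 ± 0.17 did not pass (limma adjusted p = 0.0743), and for gefitinib against untreated it was 0.07 ± 0.17 (limma adjusted p = 0.845). Without CpG replicate 2 the first of these was 0.57 and passed (limma adjusted p = 0.0225), and with the replicate number as a block it passed as well (limma adjusted p = 0.0208). The probes of Lpcat3 correlated at 0.338 over the 12 arrays.

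**Figure D2:**
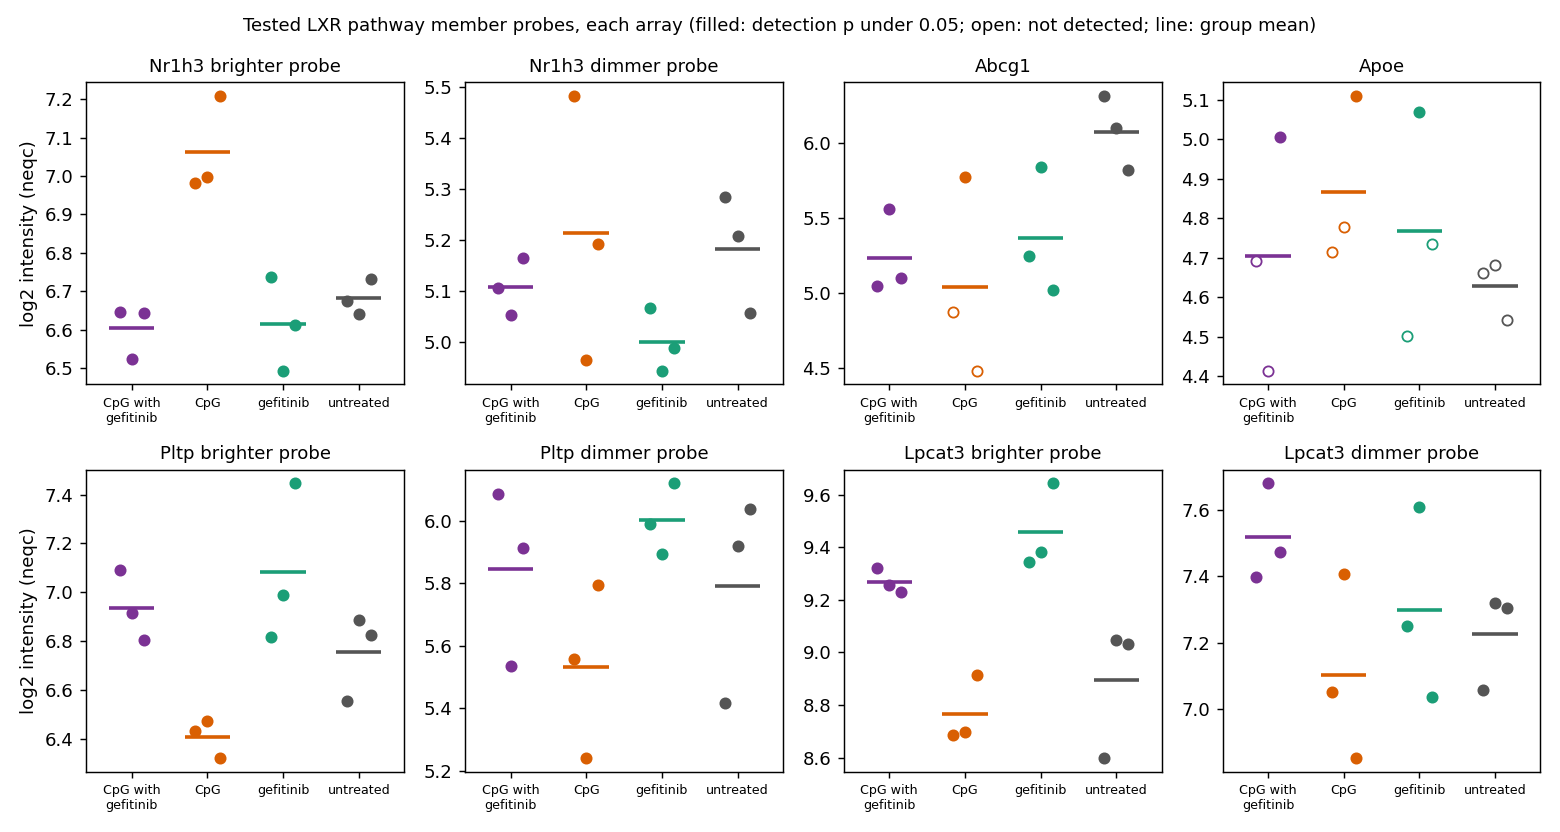
Normalized log2 intensity (vertical axis, a scale of its own in each panel) of the 8 tested member probes on each array, by group, with the group mean as a line, filled points where the probe was detected and open points where it was not. The CpG arrays are the 3 highest for the brighter Nr1h3 probe and the 3 lowest for the brighter Pltp probe, and all 6 gefitinib arrays are above the 6 others for the brighter Lpcat3 probe.

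Read by the brightest probe, 3 of the 5 tested members passed the test for CpG with gefitinib against CpG (Nr1h3 lower, Pltp and Lpcat3 higher), where 35.9% of all 8101 tested genes were called. In CpG against untreated 2 of 5 were called (Nr1h3 higher, Abcg1 lower), against 23.9% of all genes. In gefitinib against untreated 1 of 5 was called (Lpcat3 higher), against 6.89% of all genes. With so few members these counts do not separate them from the background. The count for CpG against untreated was 0 without CpG replicate 3 or untreated replicate 2 and 1 without CpG replicate 1 or untreated replicate 1, and that for gefitinib against untreated was 0 in the single-array omissions in which Lpcat3 lost its call. The 3 comparisons share groups, so their calls are not independent.

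CpG with gefitinib against gefitinib gives the CpG difference in the presence of gefitinib. With 3 arrays per group, a lack of calls there does not show that CpG had no effect. None of the 5 tested members was called by limma, as for all genes (0% called), and their differences on the brightest probes ran from -0.19 for Lpcat3 to -0.01 for Nr1h3. Over all probes 383 (3.2%) had an unadjusted p under 0.05, and 0 were called in each of the alternatives run. CpG with gefitinib against untreated also gave 0 of 5 called by limma, against 3.18% of all genes (1 of 5, Abcg1, without CpG replicate 2). There Lpcat3 was 0.38 ± 0.14 higher (SE; limma adjusted p = 0.162) and Nr1h3 differed by -0.08 ± 0.11 (limma adjusted p = 0.758).

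Whether CpG acted differently in the presence of gefitinib was tested with the interaction, the CpG difference with gefitinib minus the CpG difference without it. No member was called by limma (0 of 5, against 11.3% of all genes). It was -0.39 ± 0.15 log2 units for Nr1h3 (SE; limma adjusted p = 0.133), 0.90 ± 0.41 for Abcg1 (limma adjusted p = 0.206), 0.20 ± 0.22 for Pltp (limma adjusted p = 0.66) and -0.06 ± 0.19 for Lpcat3 (limma adjusted p = 0.901). Nr1h3 and Abcg1 each had an unadjusted limma p under 0.05 (0.0225 and 0.0455). Without CpG replicate 2, the array on which Abcg1 was highest within the CpG group, the interaction of Abcg1 was 1.27 (limma adjusted p = 0.026). That array was the only CpG array to detect the probe (detection p-values of 0.0664 and 0.330 on replicates 1 and 3). The size without it therefore rests on CpG values within the range of the control beads and is not a measured size.

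**Figure D3:**
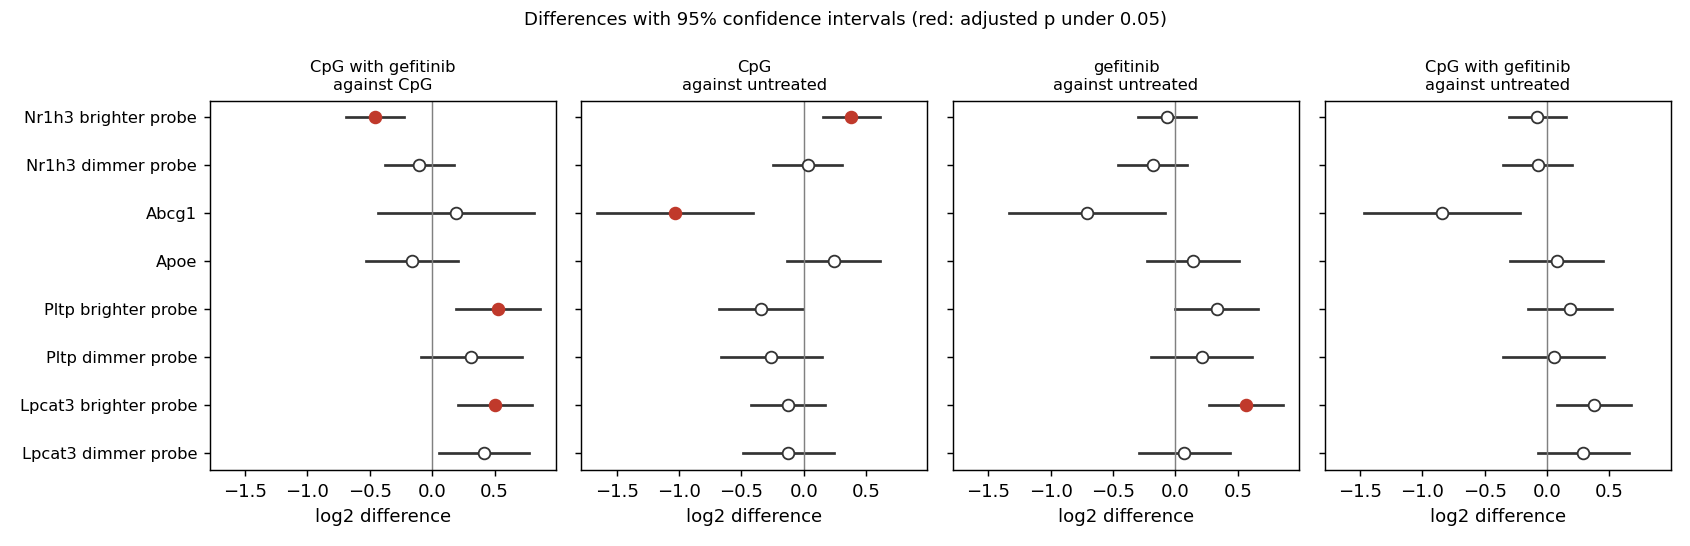
Log2 differences (horizontal axis; points) with 95% confidence intervals (bars) for the 8 tested member probes in 4 comparisons, in red where the adjusted p was under 0.05. For CpG with gefitinib against CpG the brighter Nr1h3 probe lies at -0.46 and the brighter Pltp and Lpcat3 probes at 0.53 and 0.50, and each dimmer probe has an interval that overlaps that of its brighter partner.

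Across the 12 arrays the brightest probes of Pltp and Lpcat3 correlated at 0.876, those of Nr1h3 and Pltp at -0.773, those of Nr1h3 and Lpcat3 at -0.606 and those of Nr1h3 and Abcg1 at -0.482 (Pearson's r). These values describe the pattern over groups as well as within them, since all points share the 4 treatments and the normalization. Among the other 8100 tested genes, the profiles most like that of Nr1h3 were those of Tnfsf9 (0.967), Batf2 (0.964) and Pheta1 (0.961). For Lpcat3 they were G6pc3 (0.973), Rnaset2b (0.972) and the fatty acid desaturase gene Fads2 (0.961). For Pltp they were Tecr (0.927), Xpa (0.920) and Gas6 (0.917), and for Abcg1 Ncbp2 (0.931), Srsf6 (0.904) and Nhp2 (0.890). For Apoe the closest was Tmco5 (0.830), but its probe was detected on only 3 of 12 arrays, so most of that profile lay near background. The Abcg1 probe was detected on 10 of 12 arrays.

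Other genes described as LXR targets include enzymes of fatty acid synthesis and of lipoprotein metabolism. Of 22 listed, 21 had a probe, 9 of these were detected on no array (among them the sterol exporter genes Abcg5 and Abcg8) and 11 were tested. In CpG with gefitinib against CpG, 7 rose and 1 fell (72.7% called, against 35.9% of all genes; median difference 0.72, against 0.06). This list and the lists that follow were chosen with earlier results of these data known. Their shares and medians beside those of all genes are therefore descriptions and not tests of a pathway. Scd1, the stearoyl-CoA desaturase that makes monounsaturated fatty acids, was 1.80 ± 0.12 log2 units higher (SE; limma adjusted p = 7.72e-08). Its relative Scd2 was 1.12 ± 0.15 higher (limma adjusted p = 5.66e-05). Lpl, lipoprotein lipase, was the gene that fell (-0.81 ± 0.10; limma adjusted p = 5.22e-05). Many of these lipid synthesis genes are also targets of the SREBP factors. Srebf1, itself an LXR target, differed by -0.15 ± 0.19 (limma adjusted p = 0.574).

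In CpG against untreated, 1 of these 11 rose and 6 fell (63.6% called, against 23.9% of all genes; median difference -0.50, against -0.06). Angptl4, an inhibitor of lipoprotein lipase, was at -1.48 ± 0.12 log2 units (SE; limma adjusted p = 8.17e-07) and Scd1 at -0.90 ± 0.12 (limma adjusted p = 8.16e-05). Lpl was the gene that rose (0.44 ± 0.10; limma adjusted p = 0.00823), a call lost with median scaling. In gefitinib against untreated, 4 rose and 2 fell (54.5% called, against 6.89% of all genes), with Scd1 at 0.91 ± 0.12 (limma adjusted p = 0.00126) and Scd2 at 0.74 ± 0.15 (limma adjusted p = 0.0111). The genes that fell were Angptl4 (-0.51 ± 0.12; limma adjusted p = 0.025) and Lpl (-0.37 ± 0.10; limma adjusted p = 0.0498). Angptl4 passed in 18 of 23 alternatives and Lpl in 9 of 23. That count of 6 was 2 without gefitinib replicate 3, 3 without untreated replicate 1 or untreated replicate 2, and 1 with median scaling. The calls of Scd2, Angptl4 and Lpl were lost without gefitinib replicate 3. Those of Angptl4 and Lpl were lost too without gefitinib replicate 2, untreated replicate 1 or untreated replicate 2, and that of Lpl without any array other than CpG replicate 2.

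Genes of oxysterol and desmosterol metabolism set the supply of LXR ligands. Of 11 listed, 7 were tested, and 6 of them rose in CpG with gefitinib against CpG (85.7% called, against 35.9% of all genes; median difference 1.30). The bile acid pathway enzyme gene Hsd3b7 was 1.35 ± 0.12 log2 units higher (SE; limma adjusted p = 1.58e-06). The sterol desaturase gene Sc5d was 1.38 ± 0.29 higher (limma adjusted p = 0.00227), with its probe detected on 1 of 3 CpG arrays. In CpG against untreated 2 of the 7 fell (28.6% called, near the 23.9% of all genes): Cyp27a1, the enzyme that makes 27-hydroxycholesterol, by 0.98 ± 0.14 on the log2 scale (SE; limma adjusted p = 0.000186), and Hsd3b7 by 0.85 ± 0.12 (limma adjusted p = 0.000157). Without CpG replicate 2 the count was 4. In gefitinib against untreated 4 of 7 rose (57.1% called, against 6.89% of all genes), led by Cyp51 (1.28 ± 0.21; limma adjusted p = 0.00476), which removes a methyl group from lanosterol. Next was Dhcr7, which catalyses the last step to cholesterol (0.97 ± 0.19; limma adjusted p = 0.0111), a call lost without gefitinib replicate 3. That count was 2 without gefitinib replicate 3 and with median scaling. The probe of Ch25h, cholesterol 25-hydroxylase, was detected on 0 arrays.

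Genes of cholesterol uptake, storage and transport bring sterol into the cell, free it in lysosomes and carry it between membranes. Of 22 listed, 16 had a probe and 10 were tested. In CpG with gefitinib against CpG 4 rose and 1 fell (50% called, against 35.9% of all genes). The sterol carrier gene Stard4 was 1.72 ± 0.19 log2 units higher (SE; limma adjusted p = 1.05e-05) and Lipa, the lysosomal acid lipase that frees cholesterol from its esters, 1.14 ± 0.12 higher (limma adjusted p = 1.05e-05). Stard3, a late endosomal sterol carrier, was at -1.02 ± 0.20 (limma adjusted p = 0.00133). In CpG against untreated 4 of 10 fell (40% called, against 23.9% of all genes), Lipa by 1.08 ± 0.12 on the log2 scale (limma adjusted p = 2.4e-05). Stard4 was at -0.70 ± 0.19 (limma adjusted p = 0.0155), a call lost without CpG replicate 2 or untreated replicate 2. With only the CpG and untreated groups in the fit, 2 of the 10 were called. In gefitinib against untreated 1 of 10 was called (10%, near the 6.89% of all genes), Stard4 at 1.11 ± 0.19 (limma adjusted p = 0.00488), and 2 were called without CpG replicate 2.

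Of 18 partner receptors and LXR coregulators, 7 were tested. In CpG with gefitinib against CpG 1 rose and 1 fell (28.6% called, no more than the 35.9% of all genes). Rxrb, which encodes RXRβ, was 1.23 ± 0.23 log2 units higher on its brighter probe (SE; limma adjusted p = 0.000934) and 0.68 ± 0.14 higher on the dimmer probe (limma adjusted p = 0.00261). Tbl1x, a subunit of the NCoR corepressor complex, was at -0.61 ± 0.18 (limma adjusted p = 0.0221). The call of Tbl1x was lost with median scaling and without CpG with gefitinib replicate 2, CpG replicate 1 or CpG replicate 3. In CpG against untreated and in gefitinib against untreated, limma called 0 of the 7. Without CpG replicate 3 those counts were 2 and 1, and without CpG replicate 2 the count for gefitinib was 1. Rxrb passed for CpG against untreated in 5 of 23 alternatives and for gefitinib against untreated in 7 of 23, with median scaling and with offset 50 among the 5.

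Other lysophospholipid acyltransferases, enzymes that like Lpcat3 reattach fatty acids to membrane lipids, were counted beside it. Of 6 listed, 5 were tested, and in CpG with gefitinib against CpG 1 rose, Mboat1 (0.58 ± 0.12; limma adjusted p = 0.00267), and 1 fell, Lpcat2 (-0.54 ± 0.10; limma adjusted p = 0.0012), so that 40% were called, near the 35.9% of all genes. The other Lpcat2 probe was at -0.29 ± 0.12 (limma adjusted p = 0.0772). In CpG against untreated the directions were turned, with Mboat1 at -0.81 ± 0.12 (limma adjusted p = 0.000319) and Lpcat2 at 0.41 ± 0.10 (limma adjusted p = 0.0105). These 2 comparisons share the CpG arrays. The Lpcat2 calls were lost with median scaling. In gefitinib against untreated limma called 0 of the 5, with 2 called without CpG replicate 2 and 1 without CpG replicate 3. The difference in pattern between Lpcat3 and its relatives was not tested.

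**Figure D4:**
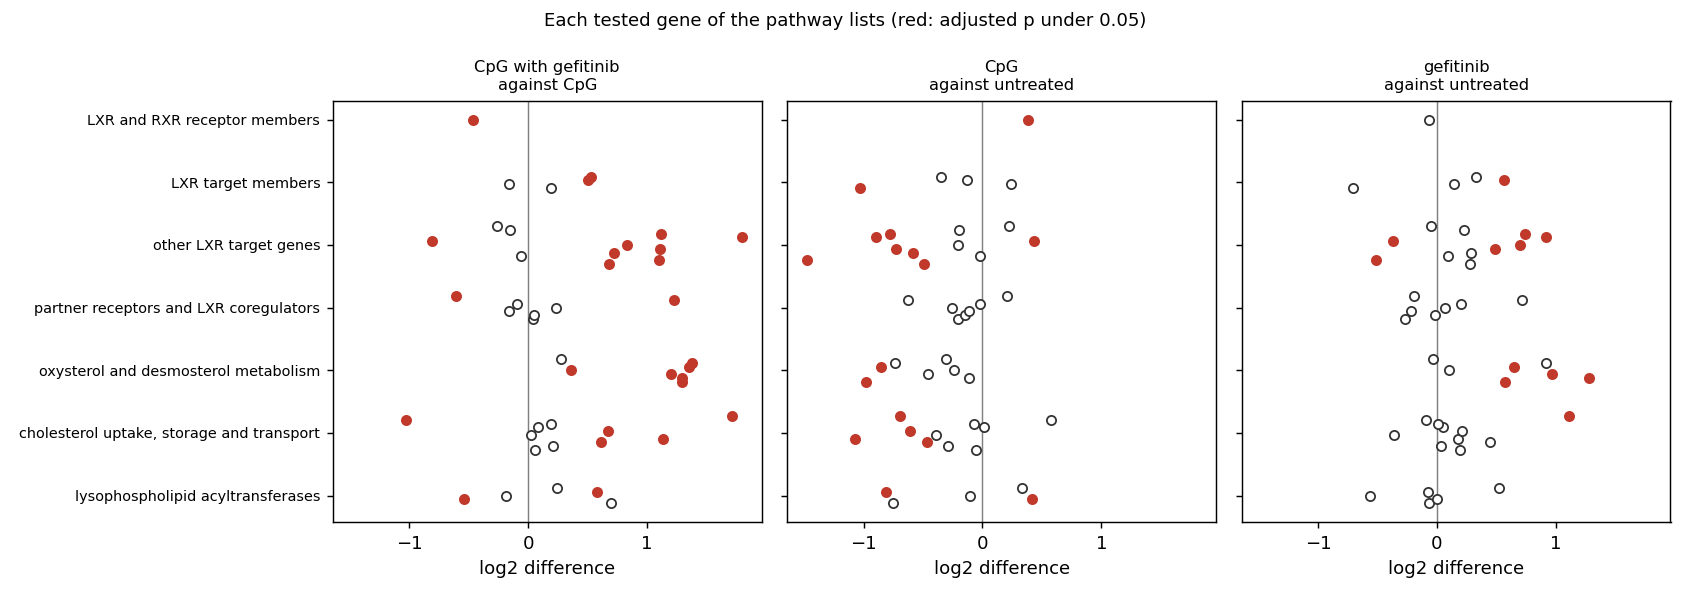
Log2 differences (horizontal axis) of each tested gene, 1 point per gene read by its brightest probe, in the member groups and the other pathway lists (rows), for 3 comparisons, in red where the adjusted p was under 0.05. The median of the other LXR target genes is 0.72 for CpG with gefitinib against CpG and -0.50 for CpG against untreated.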

How the data were processed

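Signals from 12 arrays (4 groups of 3) were used. They are intensity values on a linear scale as deposited by the authors, not normalized per the file headers, exported with GenomeStudio 2010.2 per the submitters' processing notes. Per the file headers, every signal is followed by a detection p-value. The value table deposited by the authors, intensity after quantile normalization, served as an alternative. Its scale was taken as linear with no centring, and its log2 values were used. Its sorted values differed between arrays by at most 0.513% of their mean, as quantile normalization gives.

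Here, log2 values came from limma 3.58.1 in R 4.3.3: quantile normalization after a normexp background correction whose control distribution was inferred from the detection p-values (offset 16). Probes detected (p under 0.05) on at least 3 of 12 arrays were kept (11977 of 25697). A linear model of the 4 groups was fitted to all kept probes with lmFit and eBayes and 6 contrasts (degrees of freedom 8 residual, 5.34 prior). A call is a Benjamini-Hochberg adjusted p under 0.05 over 11977 probes. A gene was read by its probe with the highest mean (8101 genes). Probe levels were not compared between probes. Of the probes, 23978 had 1 symbol, 0 several and 1719 were not listed. The fit was run on simulated data with independent noise and known changes added to the CpG group only. Those data held no pairing of arrays and no limit of detection, so the run does not cover these features.

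Members and lists were chosen with earlier results of these data known. Named from each pathway list, in the comparisons described by list, were at most the 2 called genes with the highest and the 2 with the lowest difference, Srebf1, Abcg5, Abcg8 and Ch25h being added after their values were seen. For likeness, up to 3 genes per member were named. Replicate numbers were read as a sign of pairing where all same-numbered arrays deviated together (correlation over 0.1). This held in CpG with gefitinib against CpG (0.12 to 0.34) and against gefitinib (0.23 to 0.28). This comes from the data and not from the labels. The number of arrays limits the precision.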

Additional observations from a re-analysis of the deposited data

Results flagged for a closer look

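No member was among the results singled out. In the other lists and the markers, 10 named genes were called in the limma interaction. It is the CpG difference with gefitinib minus that without, in log2 units. Genes had been named for calls in these same data, so this count is not a test. The interaction called 3 of 11 other LXR targets, 0 of 7 partner receptors and coregulators and 2 of 7 oxysterol and desmosterol genes. It called 1 of 10 uptake, storage and transport genes, 2 of 5 acyltransferases and 3 of 6 macrophage markers, against 11.3% of all genes. Of the other markers, S100a8 was called and Cdh1 was not. Among the LXR targets the named genes were Scd1 at 0.89 (adjusted p = 0.00316) and Angptl4 at 1.62 (adjusted p = 2.32e-05). In sterol metabolism and storage they were Hsd3b7 at 0.70 (adjusted p = 0.0173), Cyp27a1 at 0.72 (adjusted p = 0.0342) and Lipa at 0.96 (adjusted p = 0.00256). Among the acyltransferases, Mboat1 was at 0.66 (adjusted p = 0.0289) and Lpcat2 at -0.55 (adjusted p = 0.0298). The markers were Adgre1 at -1.35 (adjusted p = 0.00641), Cd14 at -1.15 (adjusted p = 7.08e-05) and S100a8 at -2.77 (adjusted p = 7.44e-06). These passed in all 23 alternatives for Scd1, Angptl4, Lipa, Adgre1, Cd14 and S100a8, in 22 for Hsd3b7, 16 for Mboat1, 15 for Lpcat2 and 12 for Cyp27a1. One of the other Cyp27a1 probes (0.49, limma adjusted p = 0.103) and the other Lpcat2 probe (-0.19, limma adjusted p = 0.579) did not pass. Groups of 3 arrays were too small to test for a single array standing apart.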

How the results depend on the processing

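Results were recomputed under 23 alternatives (21 or 22 for probes that the stricter filter or the choice of 1 probe per gene left out), and no member difference that was called changed sign. Calls of the members counted 2 for CpG against untreated, and 1 with median scaling, with no detection filter or with only the groups compared (0 to 2 without single arrays). For gefitinib against untreated the 1 call became 0 with median scaling or with only the groups compared (0 to 1 without single arrays). For CpG with gefitinib against untreated the 0 calls became 1 with only the groups compared (0 to 1 without single arrays). Without single arrays the counts were 2 to 3 for CpG with gefitinib against CpG and 0 to 1 for the interaction. Over all probes, 784 called for gefitinib against untreated became 1197 without background correction, 174 with median scaling and 1221 with the authors' deposited values (226 to 1043 without single arrays). The 361 called for CpG with gefitinib against untreated became 624 without background correction, 604 with offset 50, 86 with median scaling, 631 with the authors' values, 590 with a trended robust prior and 235 with only the groups compared (131 to 508). Of these, 64.8% were higher, and 81.4% with median scaling. Median scaling gave 2675 for CpG with gefitinib against CpG (4049 in the main fit; 3273 to 4158 without single arrays) and 702 for the interaction (1247; 952 to 1266). For CpG against untreated, the 2664 were 2121 to 2573 without single arrays. The causes were not tested.

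Over all groups, same-numbered arrays correlated in their deviations at -0.15 to 0.34 (median 0.16; 12 of 18 pairs over 0.1), and differently numbered arrays at -0.35 to 0.17 (median -0.08; 6 of 36). The numbers were read as a sign of pairing in CpG with gefitinib against CpG and against gefitinib, and in no other comparison. The main fit did not use them, and the block was run for all comparisons. With the replicate number as a block, 2 members were called for gefitinib against untreated and 1 for CpG with gefitinib against untreated, and over all probes 1217 and 581. The member gained in both was Abcg1 (limma adjusted p = 0.0418 and 0.0343). Of the other member calls, only that of the dimmer Lpcat3 probe for CpG with gefitinib against CpG changed. The bead chip as a block was not run, since the columns name no chip. Signals near background limit Abcg1 and Apoe, and Abca1, Rxra and Mylip allow no comparison.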
